A study of Mus musculus with 6 samples.

Results

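Retinal pigment epithelium (RPE) cells were the 116 cells that the deposited cell annotation calls RPE, out of 46375 cells in all and 45746 cells with a cell type. They came from the retinas of male C57BL/6J mice aged 12 months, 3 of them Dram2 WT (wt/wt) and 3 Dram2 KO (ko/ko), the knockout being a constitutive deletion of exon 4 of Dram2 made with CRISPR. The retinas were dissociated with papain, and single cells were profiled with a 10x Genomics 3′ kit. The comparison asks what loss of Dram2, which codes for a membrane protein of lysosomes, does to the cells of the retina. Replicate 3 of each genotype is labelled batch 1, and replicates 1 and 2 are labelled batch 2. The labels say retina and give 3 replicates a genotype, while the design text of the series speaks of choroid and, beside 3 replicates a genotype, of 2 samples in all. The extraction protocol likewise counts 1 sample for each genotype, so whether the 3 replicates are separate samples or parts of 1 cannot be told from the labels.

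RPE cells form a single pigmented layer behind the photoreceptors. They turn spent all-trans retinoid back into 11-cis retinal (the visual cycle), take up shed outer segments, move ions, lactate and retinol between the blood and the retina, and secrete carrier proteins. Since they adhere to the back of the eye, a dissected neural retina carries few of them.

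RPE cells numbered 25, 25 and 23 in wt/wt and 17, 16 and 10 in ko/ko. An RPE cell had 196 to 6713 unique molecular identifiers (UMIs, each counting 1 captured RNA molecule), with a median of 1121.5, and a median of 625 genes. Summed per retina, RPE cells gave 17073 to 35968 UMIs, so that 1 UMI was worth 27.8 to 58.6 CPM, where CPM is a gene's UMIs as a share of its sum, scaled up to 1e6 UMIs. A 3′ kit does not count a molecule more often for being long, so CPM was not scaled by gene length. Capture and the assignment of UMIs to genes can still differ, so levels of unlike genes compare only roughly. Rpe65, Rdh5, Ptgds and Ttr, taken as marker genes of the type, together made up 4.58% to 23.5% of the UMIs of an RPE cell, with a median of 14.8%. All 4 had a UMI in 89 cells, 3 of them in 26 cells and 2 in 1 cell. At a marker share of at least 5% lay 115 of the 116 RPE cells and 0 of the 42359 photoreceptor, 2083 interneuron, 942 glia and 246 mesenchymal cells. The highest value outside the RPE cells was 4.64%, in 1 photoreceptor cell. By these markers the cells matched their label. The label rests on clusters of the same counts, so the match does not check it independently.

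Markers of the other cell types the suspension could hold were low in RPE cells. All 7 fibroblast genes were at 0 UMIs, as were the microglia genes P2ry12, Tmem119, Ctss and Tyrobp and 5 of 8 endothelial genes, among them Pecam1, Cdh5 and Flt1. The microglia list of 10 genes took 0.00586% to 0.0338% of the RPE UMIs of a retina, against 0.546% to 2.74% in mesenchymal cells. Its median over the retinas was 0.0170% in RPE cells and 0.00519% to 0.00777% in photoreceptors, interneurons and glia. Of the 6 pericyte genes, 5 had RPE UMIs. That list took 0.00586% to 0.0278%, against 0.163% to 0.481% in mesenchymal cells. Its median was 0.0142% in RPE cells, 0.0147% in glia, and 0.000632% and 0.000542% in photoreceptors and interneurons. Among the markers of Mueller glia, Slc1a3 and Kcnj10 had 0 UMIs and Aqp4 had 1. The Mueller glia list as a whole nevertheless took 1.21% to 1.6% of RPE UMIs. Of its members, Apoe took 1.10% and Rlbp1 0.247% of all RPE UMIs. Apoe was counted at 11258 CPM in RPE cells and 19749 CPM in glia, and Rlbp1 at 2490 and 4598 CPM. The part of glial RNA in these values was not tested. The melanocyte markers Kit, Mc1r and Ednrb had 1 UMI each, Sox10 had 6, in 6 cells, and Mlana had 7, in 6 cells.

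The transcriptome of RPE cells was led by secreted carrier proteins. Ttr, which codes for transthyretin, the carrier of thyroid hormone and of the retinol-binding protein, took 8.24% of all RPE UMIs. Ptgds, coding for prostaglandin D synthase, a secreted protein that also binds lipophilic molecules, took 6.28%. Ttr was counted at 76851, 82140 and 72481 CPM in wt/wt and at 89092, 98310 and 82528 CPM in ko/ko. Ptgds was counted at 57620 (wt/wt 1), 59659, 54993, 65745, 70272 and 78135 CPM. For both genes every ko/ko retina lay above every wt/wt retina, though by little. Of the 308 genes tested between the genotypes, 33 (10.7%) did not overlap, in either direction. The next highest genes for secreted proteins in the lists were the protease inhibitor gene Cst3 at 27676 ± 3700 CPM (SD, n = 6 retinas), the iron carrier gene Trf at 19614 ± 1939 CPM, the lipid carrier gene Apoe at 11258 ± 1531 CPM and the chaperone gene Clu at 10082 ± 2216 CPM. The 20 highest genes held 33.9% of all RPE UMIs.

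**Figure D1:**
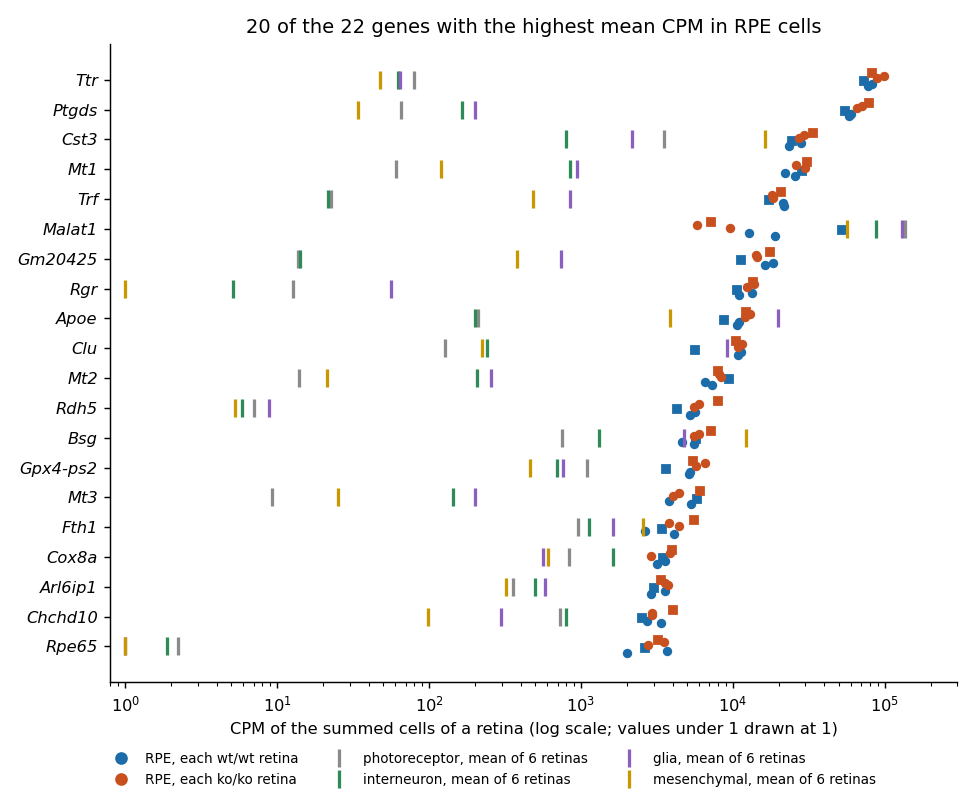
CPM (log axis) of 20 of the 22 genes with the highest mean in RPE cells, with 1 point for each retina (blue wt/wt, orange ko/ko, squares batch 1) and ticks for the mean of the other cell types. Ttr and Ptgds lie far to the right of the ticks of all other types, while the Malat1 points lie to the left of the mean ticks of all other types.

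Genes that set RPE cells apart were described without a test, since the cell types are clusters of the same counts. A gene was called set apart where it had at least 20 RPE UMIs and its RPE CPM was at least 4 times that of each of the other 4 types in all 6 retinas. A type with fewer than 3 UMIs of the gene was set to 3 UMIs, so that many of these ratios are lower bounds. Of 1038 genes with enough UMIs, 45 were set apart, which is 4.34%, and they carried 27.8% of RPE UMIs. Just inside the limit lay Etfb and Krt18, with lowest ratios of 4.004 and 4.07. Just outside lay Cops9 and Gm45233, at 3.94 and 3.92. Of the 20 highest genes, 11 were set apart, and Cst3, Apoe, Clu and Bsg were not. Ttr had the largest lowest-of-6 ratio, 665, followed by Ptgds at 256, Rgr at 143, Rdh5 at 130, Rpe65 at 54.9 and Slc16a8 at 38.0.

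**Figure D2:**
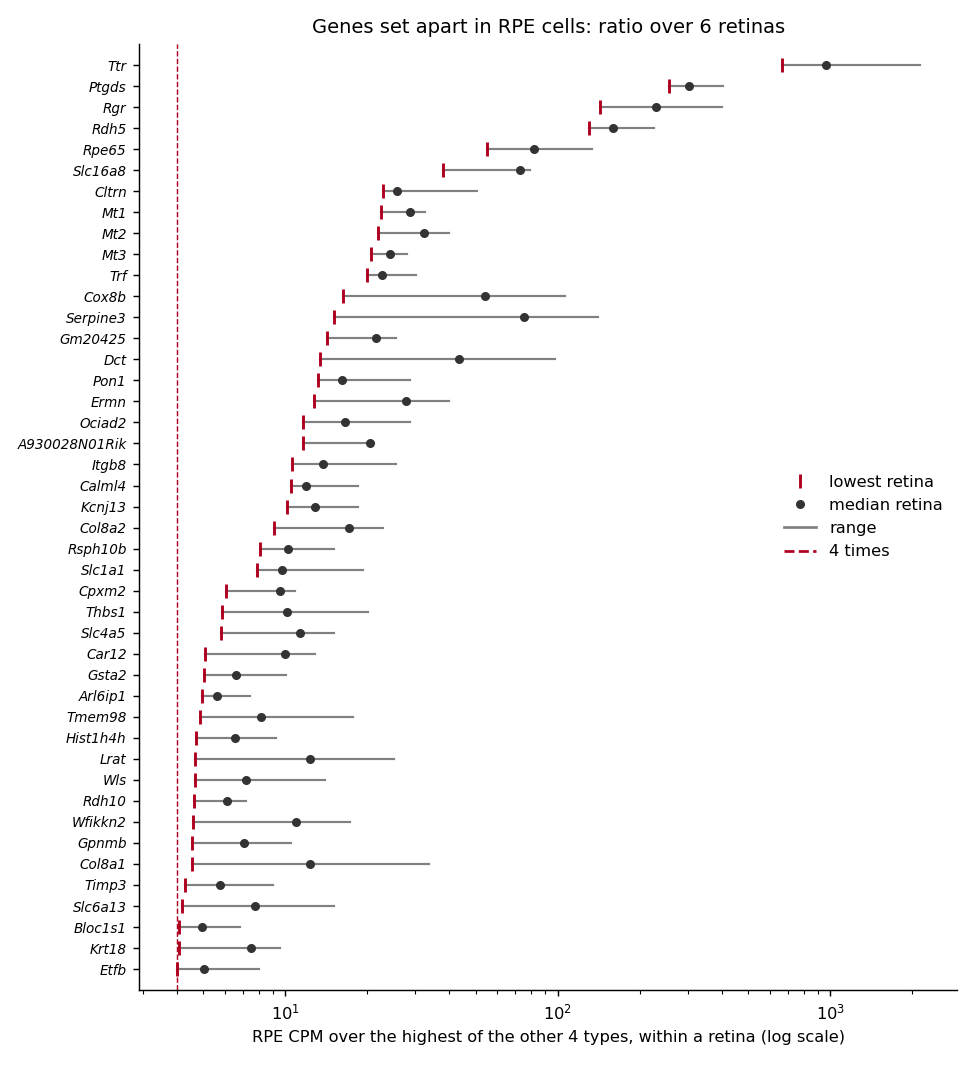
Ratio of the RPE CPM to the highest CPM among the other 4 types for 44 of the 45 genes set apart (log axis), with the lowest, median and highest retina. All lowest values lie at or right of the dashed line at 4, and 6 genes have a lowest value of 38.0 or more.

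Of the 11 visual cycle genes, 9 had enough UMIs and 6 of these were set apart, against 4.34% of all genes with enough UMIs. Rgr codes for an opsin of the RPE that acts as a retinal photoisomerase, Rdh5 for the 11-cis retinol dehydrogenase that makes 11-cis retinal, and Rpe65 for the isomerohydrolase that makes 11-cis retinol. Rgr was the highest of them, at 11000.1, 13345, 10648, 12434, 13797 and 13530.1 CPM (wt/wt 1 to 3, then ko/ko 1 to 3). Rdh5 was counted at 5238, 5639, 4309, 5501, 5945 and 8024 CPM. Rpe65 was counted at 2020.4, 3684, 2641, 2773, 3505 and 3221 CPM, and was the 22nd gene by mean level. In each of these 3 genes the values of the genotypes overlapped. Lrat, which esterifies retinol for storage, was low at 426 ± 251 CPM, and Rdh10 stood at 1518 ± 397 CPM, with 254 CPM in glia. The other members did not single out RPE cells. Rlbp1, which carries 11-cis retinoids, was counted at 2490.3 ± 149 CPM in RPE cells and 4598 CPM in glia. Rrh was counted at 235 ± 86.0 CPM in RPE cells and 304 CPM in glia, and Stra6, the receptor of the retinol-binding protein, at 568 ± 242 CPM in RPE cells and 232 CPM in mesenchymal cells. Of the retinoid enzymes of photoreceptors, Rdh8 had 0 UMIs in RPE cells and Rdh12 stood at 110 ± 33.7 CPM against 818 CPM in photoreceptors.

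The 250 bases before the RefSeq start sites of Rpe65, Rgr and Rdh5 are printed here with those of Dct, a pigment gene, since these genes were set apart together (mouse GRCm38, printed 5′ to 3′ on the gene's strand). Capitals mark CATGTG, a core that MITF binds in pigment cell genes, CACGTG, the related E-box, and TAATCC, which OTX2 binds, on either strand (CACATG and GGATTA are the reverse complements). The windows are chr3:159598931-159599180 on the plus strand for Rpe65 (its last 6 bases lie in an annotated exon), chr14:37049015-37049264 on the minus strand for Rgr, chr10:128919298-128919547 on the minus strand for Rdh5 and chr14:118052247-118052496 on the minus strand for Dct.
Rpe65: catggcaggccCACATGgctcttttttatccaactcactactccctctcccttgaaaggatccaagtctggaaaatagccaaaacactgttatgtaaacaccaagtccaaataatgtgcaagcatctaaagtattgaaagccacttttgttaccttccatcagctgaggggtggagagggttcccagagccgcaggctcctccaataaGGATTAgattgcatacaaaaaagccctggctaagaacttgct
Rgr: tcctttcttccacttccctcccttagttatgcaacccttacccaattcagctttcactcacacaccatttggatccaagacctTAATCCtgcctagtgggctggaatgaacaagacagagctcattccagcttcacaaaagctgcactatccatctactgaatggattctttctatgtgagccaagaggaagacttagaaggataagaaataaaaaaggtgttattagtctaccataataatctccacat
Rdh5: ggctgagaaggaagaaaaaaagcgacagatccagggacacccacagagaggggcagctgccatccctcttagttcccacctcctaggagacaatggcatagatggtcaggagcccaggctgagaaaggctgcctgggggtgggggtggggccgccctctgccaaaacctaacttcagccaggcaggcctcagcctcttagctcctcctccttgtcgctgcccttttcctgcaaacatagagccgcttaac
Dct: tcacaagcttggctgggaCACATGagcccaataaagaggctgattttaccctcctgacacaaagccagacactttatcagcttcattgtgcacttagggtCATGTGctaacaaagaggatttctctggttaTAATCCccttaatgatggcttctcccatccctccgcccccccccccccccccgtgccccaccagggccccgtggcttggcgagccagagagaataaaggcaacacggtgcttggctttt
Rpe65 held CATGTG and TAATCC once each, Dct held CATGTG on both strands and TAATCC once, Rgr held TAATCC once, and Rdh5 held none of the motifs. The matches do not overlap. Of the 45 genes set apart, 37 had a promoter in the table. CATGTG stood in 7 of the 37 genes (18.9%) and in 13.8% of all 27025 genes with a promoter, TAATCC in 5 (13.5%) and in 7.21%, and CACGTG in 2 (5.41%) and in 6.86%. These are counts of letters and say nothing of binding.

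The factors themselves were near the limit of detection. Mitf had 6 UMIs in all RPE cells, Otx2 had 28, and Tfec had 0, where a count of 0 in the 151269 RPE UMIs allows up to 19.8 CPM (3 counts, counting error only). Otx2 was at 175 ± 103.1 CPM in RPE cells, at 182 CPM in interneurons and at 130 CPM in photoreceptors.

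Pigment genes were uneven. Dct, the dopachrome tautomerase of melanin synthesis, was set apart with a lowest ratio of 13.4, and had UMIs in 71 of 116 cells. Of the 13 members of the melanin and melanosome list, 3 had the 20 UMIs that the rule asks for, Dct, Pmel and Myrip, and the other 10 could not be called. Tyr, the enzyme that starts melanin synthesis, had 13 UMIs in 13 cells, Tyrp1 had 15 UMIs in 11 cells, and Rab38 had 0. The photoreceptor, glia, interneuron and mesenchymal means of Tyr and Tyrp1 were all at or below 1.1 CPM.

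Of the 16 listed channels and transporters, those set apart were Slc16a8, the basolateral lactate transporter of the RPE, and Kcnj13, a potassium channel of its apical membrane. Outside the list, the transporter genes Slc1a1, Slc4a5 and Slc6a13 were set apart too, with lowest ratios of 7.86, 5.82 and 4.2. Slc16a8 was counted at 2656, 2406, 2308, 2818, 2085 and 1464 CPM. Kcnj13 was counted at 374, 451, 389, 447, 488 and 703 CPM. The lowest Slc16a8 value and the highest Kcnj13 value both came from ko/ko 3, the retina with 10 RPE cells. Bsg, the partner of the lactate transporters, stood at 5748 ± 853 CPM in RPE cells and 12197 CPM in mesenchymal cells, and Slc2a1, the glucose transporter, at 721 ± 260 CPM against 1507 CPM. Best1, a chloride channel often used as an RPE marker, had 0 UMIs, as did Car4. Car14, another carbonic anhydrase, was at 1928 ± 803 CPM in RPE cells and 1432 CPM in glia.

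Several genes known for the RPE were not found at this depth. Serpinf1, Cryba1, Cd36 and Cdh1 had 0 UMIs in RPE cells, and Mertk, the receptor for outer segment uptake, had 6 UMIs in 6 cells. Of the 18 genes of outer segment uptake and lysosome, Gpnmb was set apart, and Psap, Ctsd and Npc2 were the highest, at 2952 ± 309, 2688 ± 464 and 1045.0 ± 212 CPM. Krt18, an epithelial keratin, was set apart at 1011 ± 168 CPM, while Cdh1, Ocln, Cldn19 and Epcam had 0 UMIs.

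Metal-binding proteins were high. The metallothionein genes Mt1, Mt2 and Mt3, neighbours on chromosome 8, were counted at 27159 ± 3195, 7923 ± 951 and 4911 ± 963 CPM, and their lowest ratios to the other types were 22.4, 21.9 and 20.7. Glia came second, at 934, 257 and 199 CPM. Trf was set apart at a lowest ratio of 19.99. Gm20425, at 15324 ± 2591 CPM, shares 2108 exon bases on the same strand with Trf (chromosome 9, GRCm38) and 888 with Srprb, so that its UMIs and those of Trf are uncertain as to their gene. The same holds for Bloc1s1, which shares 720 exon bases on the same strand with Rdh5, and for the pseudogene Gpx4-ps2, at 5274 ± 942 CPM beside Gpx4 at 1481 ± 212 CPM. Gm22133, a miRNA gene whose 109 bases all lie in exons of Ftl1, had 376 RPE UMIs, and Ftl1 had 381. Here UMIs in shared exon bases were thus counted for both genes. The UMI sums, shares and gene counts of this report can therefore hold such molecules more than once.

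Cox8b, the heart and muscle form of subunit 8 of cytochrome oxidase, was set apart, and Cox8a, the form found in most tissues, was not. Cox8b was counted at 599, 564, 1752, 3578, 1464 and 4100.0 CPM in the RPE sums and at 12.8 CPM or less in the other types. Cox8a stood at 3485 ± 412 CPM in RPE cells and at 1628 CPM in interneurons. Of the other 11 members of the list, Cox6a2 had 0 UMIs and 0 were set apart.

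Single cells differed in which of these genes they showed. Among the RPE cells, Ttr, Ptgds, Cst3, Mt1, Trf and Clu had a UMI in all 116 (exact Clopper-Pearson 95% interval for the share, 96.9% to 100%), Rgr in 115, Rdh5 in 110, Slc16a8 in 95 and Rpe65 in 94. To compare types of unequal depth, each cell was thinned to 500 UMIs, which left out 24 of 116 RPE cells and 25689 of 42359 photoreceptors. Thinned, Rpe65 was detected in 67.6% of RPE cells (81.0% not thinned) and in 0.0717% of photoreceptors (0.106%), where the median depth before thinning was 1121.5 and 428 UMIs. Over the retinas its thinned share was 50.7%, 73.9%, 59.7%, 70.5%, 82.4% and 79.9%. Rdh5 was detected in 92.3% and Rgr in 99.3% of thinned RPE cells, and in 0.285% and 0.525% of thinned photoreceptors. Kcnj13 and Lrat were detected in 18.7% and 22.04% of thinned RPE cells. Ttr and Ptgds had a UMI in 3.30% and 2.80% of thinned photoreceptors, at levels of 0.0950% and 0.102% of those in RPE cells.

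**Figure D3:**
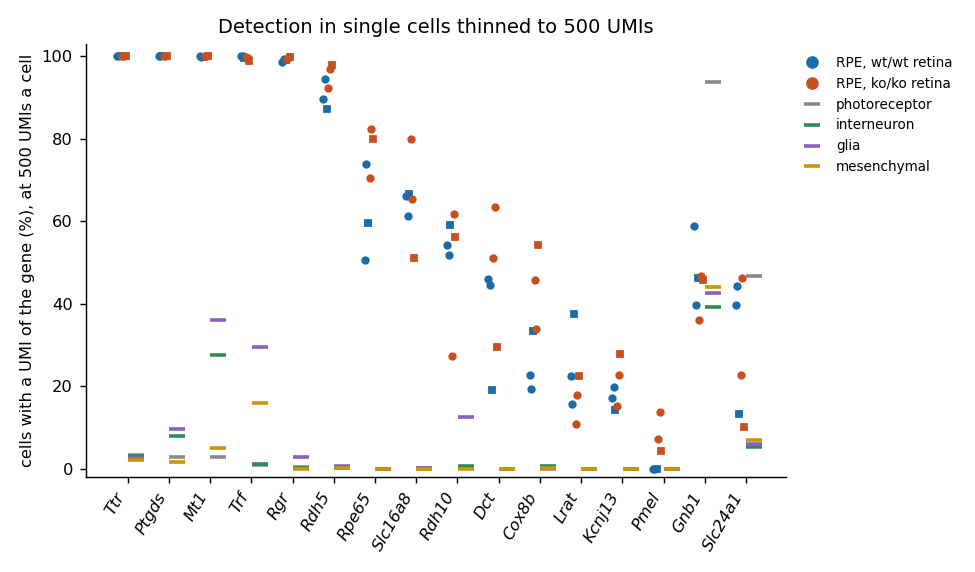
Share of cells with at least 1 UMI of a gene after thinning to 500 UMIs a cell, for RPE cells of each retina (points, squares batch 1) and for the other types (ticks). Ttr, Ptgds and Mt1 lie near 100% in RPE cells, and Rpe65 between 50.7% and 82.4%.

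Among RPE cells of 1 retina, the counts of Malat1, a nuclear non-coding RNA, exceeded counting error by the largest factor. Over 145 genes with at least 100 RPE UMIs, a chi-square of the cells' counts against their depth, divided by its degrees of freedom, had a median of 1.23. It was 79.0 for Malat1, 11.3 for Serpine3, 10.9 for Ttr, 8.01 for Ptgds, 7.47 for Abhd2 and 6.89 for Trf. These genes had 3188, 363, 12463, 9493, 409 and 2946 RPE UMIs. At an equal relative spread this value rises with a gene's count, so it does not rank genes of unlike counts by relative spread. Malat1 took a median of 0.597% of a cell's UMIs, and from 0% to 24.8%. In 5 cells it took over 10%, and the 4 marker genes took 4.58% to 11.8% of the UMIs of those cells. Rod-list genes took 4.52% to 6.86% of the UMIs in 4 of the 5 and 1.33% in the other, against a median of 1.62% over RPE cells, and their part in the Malat1 values was not tested. The cell with 24.8% came from wt/wt 3, had 6713 UMIs, more than any other RPE cell, and held 88.9% of the RPE Malat1 of that retina. Serpine3, a serpin gene that was set apart, had UMIs in 34 of 116 cells, and up to 79 in 1 cell.

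Malat1 was low in RPE sums. It was counted at 19007, 12781.5 and 52046 CPM in wt/wt and at 9616, 5767 and 7204 CPM in ko/ko. The lowest of the other types was 3.32 to 9.61 times higher in 5 retinas and 0.971 times as high in wt/wt 3. Without the 5 cells, RPE Malat1 of wt/wt 3 was 4608 CPM.

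RNA of rods was present in RPE cells as in the other types. The 22 genes of a rod list took 2.13%, 1.66% and 2.01% of RPE UMIs in wt/wt and 1.6%, 1.18% and 1.66% in ko/ko, against 10.3% to 15.3% in photoreceptors. Interneurons, glia and mesenchymal cells had 0.954% to 2.29%. The median rod gene stood at 13.2% of its photoreceptor level in RPE cells, 13.2% in interneurons, 13.2% in glia and 11.9% in mesenchymal cells. In RPE cells 20 of the 22 genes lay between 5% and 20%. Unc119 lay at 21.1%, and at 45.1% in interneurons.

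Slc24a1, the rod sodium, calcium and potassium exchanger, stood apart from the other rod genes. In RPE cells it reached 56.1% of its photoreceptor level, and 8.89% to 11.2% in the other 3 types. It was counted at 1310, 1090.2, 417, 358, 1198 and 176 CPM in RPE sums, while the means of interneurons, glia and mesenchymal cells were 120, 151 and 123 CPM. In all 6 retinas it lay above these 3 types, but the value in ko/ko 3 rests on 3 UMIs and lies close to the 154 CPM of mesenchymal cells in that retina. It had UMIs in 57 of 116 RPE cells, and in 29.7% of RPE cells thinned to 500 UMIs against 5.42% to 6.94% in the other 3 types. The lowest retinas were both retinas of batch 1 and ko/ko 1.

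**Figure D4:**
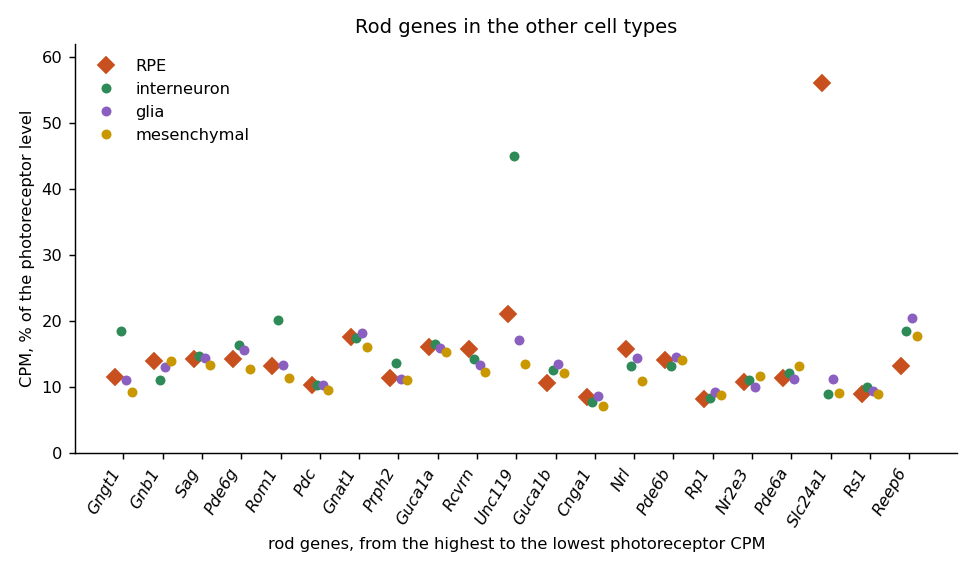
Level of 21 of the 22 rod genes in RPE cells (diamonds), interneurons, glia and mesenchymal cells, as a percentage of the photoreceptor CPM, with genes ordered by photoreceptor level. RPE values lie between 8.13% and 21.1% except for Slc24a1 at 56.1%.

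RPE cells made up 0.332%, 0.340% and 0.333% of typed cells in wt/wt and 0.245%, 0.202% and 0.110% in ko/ko. The groups did not overlap, and the difference was -0.150 percentage points (exact permutation test, two-sided, p = 0.1, which no split of 3 against 3 retinas can go below). Counting only cells that had 500 UMIs or more and no more than 10% mitochondrial UMIs, the difference was again -0.150, and the exact permutation p was 0.5. Within batch 2 the difference was -0.113 and within batch 1 it was -0.224. How many RPE cells stayed on each retina at dissection is not known, and its part in the share was not tested. The rod-list share of RPE UMIs was 1.93% ± 0.244 in wt/wt and 1.48% ± 0.265 in ko/ko (n = 3 each, exact permutation p = 0.2). It was lower in ko/ko in 3 of 3 pairs of the same replicate number, and the ko/ko minus wt/wt difference was -0.503 percentage points within batch 2 and -0.347 within batch 1. In photoreceptors, glia and mesenchymal cells the rod-list share was instead higher in ko/ko in each of these pairs. Photoreceptors had 10.3%, 10.5% and 14.4% in wt/wt and 13.6%, 12.0% and 15.3% in ko/ko. Interneurons had 1.61%, 1.62% and 1.98% in wt/wt and 2.29%, 1.73% and 1.95% in ko/ko.

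Between the genotypes, 0 of 308 genes tested in RPE sums passed an adjusted p of 0.05 (0%) with edgeR's quasi-likelihood test and Benjamini-Hochberg adjustment. An unadjusted p under 0.05 was found for 11 genes with edgeR and 9 with limma-voom, which called 0. DESeq2 called 1 gene, Malat1 (0.325%). The retinas of the genotypes did not overlap in 33 genes (10.7%), and those of the 2 batches did not overlap in 59 (19.2%). Values in random order separate 3 against 3 retinas with a probability of 0.1, and 10.7% is near that level. The batches hold unlike numbers of retinas, so their share has another such level and does not compare directly. The sums rest on 10 to 25 cells a retina, and the labels do not say that each retina came from a separate mouse, so p-values measure only the spread between these samples. Dram2 had 1, 3 and 1 UMIs in wt/wt RPE sums and 1, 1 and 0 in ko/ko. Reads of a 3′ kit need not lie in the deleted exon, so this count does not check the knockout.

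Batch and genotype are balanced here, and adding the batch to edgeR gave 3 calls (0.974%), lower Malat1 and higher Cox8b and Dct in ko/ko. With the replicate number as a block edgeR gave 4 calls (1.3%), those 3 and lower Gnb1, and limma-voom with the batch gave 5 (1.62%), with lower Gngt1 as well. Cox8b, whose wt/wt and ko/ko values overlap (971 ± 676 and 3047 ± 1396 CPM, n = 3 each), was higher by 1.5 ± 0.51 (SE) on the log2 scale, with an adjusted p of 0.808 in edgeR. The adjusted p was 0.000504 with the batch in edgeR and 1.08e-05 with the block. With 6 retinas, fits with the batch or block leave few degrees of freedom. For every gene they lean on a spread shared over genes, so their smallest p-values overstate what the retinas alone can show. Without wt/wt 3, and with no batch term, the difference was 2.31 and edgeR called Cox8b (adjusted p = 0.000719). Within batch 2 both ko/ko retinas lay above both wt/wt retinas, and within batch 1 the ko/ko retina lay above the wt/wt retina. Cells with a Cox8b UMI numbered 9 of 25, 8 of 25 and 10 of 23 in wt/wt and 10 of 17, 7 of 16 and 6 of 10 in ko/ko. Up to 25 of the 277 Cox8b UMIs lay in 1 cell, and 1 cell held up to 36.4% of those of its retina.

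Dct was counted at 1048, 1880 and 445 CPM in wt/wt and at 3533, 2573 and 1054 CPM in ko/ko, the lowest value of each genotype being that of batch 1. Its log2 difference was 1.06 ± 0.53, with an edgeR adjusted p of 0.91, of 0.0486 with the batch and of 0.014 with the block. With 1 retina left out at a time it ran from 0.68 (without wt/wt 3) to 1.62 (without wt/wt 2), and it was 0.69 without ko/ko 1. Pmel, the fibril protein of melanosomes, had 0 UMIs in the 3 wt/wt sums and 9, 11 and 2 in the ko/ko sums, in 5, 3 and 1 cells. Against a limit of 3 counts over the wt/wt group (33.6 CPM), the pooled ko/ko level was 355 CPM. That level pools cells over the retinas and rests on 22 UMIs, up to 6 of them in 1 cell. It has a counting error of its own, so no lower bound on a fold difference is given. The Pmel counts were too low for the filter, and edgeR called Pmel, as higher in ko/ko, when the filter was dropped. The melanocyte list, beside these pigment genes, took 0.00278% to 0.0112% of wt/wt RPE UMIs and 0.0117% to 0.0179% of ko/ko RPE UMIs. These shares rest on few UMIs. Mlana, which the list shares with the melanin list, had 1 UMI in wt/wt and 6 in ko/ko. Sox10 went the other way, with 4 and 2. The part of melanocyte RNA in the Dct and Pmel values was not tested.

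Malat1 was unevenly spread over the cells of wt/wt retinas. Its log2 difference was -2.0 ± 0.48, with an edgeR adjusted p of 0.626, of 2.47e-06 with the batch and of 3.2e-10 with the block. Without wt/wt 3, it was -1.13 (edgeR adjusted p = 0.000916). Without the 5 cells in which Malat1 took over 10%, it was -0.46 (edgeR adjusted p = 0.918), and -0.35 with the batch (adjusted p = 0.79). Those cells were chosen for their Malat1 after seeing the data and all came from wt/wt, so that a smaller difference was fixed by the choice. Without these cells edgeR with the batch called 1 gene, Cox8b, at an adjusted p of 0.0484, and Dct had a log2 difference of 0.99 against 1.04 with them, at an adjusted p of 0.162.

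Gnb1 and Gngt1, which code for subunits of rod transducin, were lower in ko/ko RPE sums by log2 differences of -0.94 ± 0.27 and -0.81 ± 0.42 (edgeR adjusted p of 0.808 and 0.91). Gnb1 was counted at 2395, 1880 and 1362 CPM in wt/wt and at 984, 1109 and 996 CPM in ko/ko, without overlap. Gngt1 was counted at 2020.4, 2030.0 and 1112 CPM in wt/wt and at 1655, 532 and 879 CPM in ko/ko, with overlap. Both are members of the rod list, and in RPE cells they stood at 13.97% and 11.5% of their photoreceptor levels. All 14 rod-list genes tested had a log2 difference below 0, with a median of -0.49, against -0.01 over the 308 genes, of which 158 were lower. An unadjusted edgeR p under 0.05 was found for 1 of the 14. They are parts of the same rod-list share, so they do not count as 14 separate results. In the 89 cells left after those with the highest rod-list share in each retina were removed, the difference was -0.52 for Gnb1 and -0.04 for Gngt1 (edgeR adjusted p of 0.978 and 0.993). Since that share counts both genes, the removal itself favoured a smaller difference, and the part of rod RNA in both values was not tested apart from them. With 1 retina left out at a time, the Gngt1 difference ran from -1.36 (without ko/ko 1) to -0.46 (without ko/ko 2). Ptgds was higher in ko/ko in 3 of 3 retinas, at 71384 ± 6269 against 57424 ± 2339 CPM, by 0.22 ± 0.07 on the log2 scale (edgeR adjusted p = 0.808). Ttr, also higher in 3 of 3 retinas, differed by 0.14 ± 0.09 (edgeR adjusted p = 0.91).

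**Figure D5:**
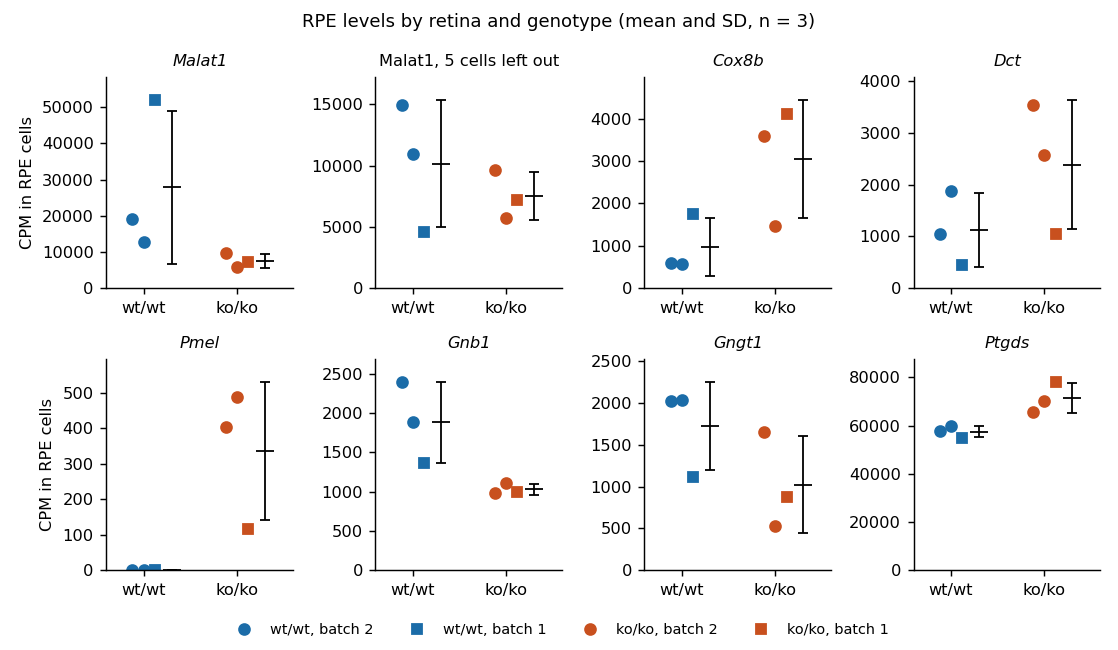
CPM in the RPE sums of each retina (circles batch 2, squares batch 1) with mean and SD of 3 retinas a genotype. Malat1 is shown with and without the 5 cells of over 10% Malat1, whereupon wt/wt 3 moves from 52046 to 4608 CPM, and Cox8b and Dct are higher in ko/ko within each batch.

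The 2 remaining genes with the smallest p in their direction were Sult1c1, a sulfotransferase gene that stood at 184 ± 127 CPM in wt/wt and 691 ± 197 CPM in ko/ko (log2 difference 1.78 ± 0.55, edgeR adjusted p = 0.808), and Wdr89, at 700.0 ± 169 and 311 ± 205 CPM (-1.28 ± 0.48, adjusted p = 0.91). With 1 retina left out at a time, the Wdr89 difference ran from -1.83 (without ko/ko 1) to -0.79 (without ko/ko 2). Of the lists, 8 visual cycle genes were tested, 5 higher and 3 lower in ko/ko, with a median log2 difference of 0.10. The 8 channels and transporters were 2 higher and 6 lower (median -0.28), and the 9 cytochrome oxidase genes 6 higher and 3 lower (median 0.12). The 37 tested genes that set RPE cells apart were 17 higher and 20 lower (median -0.01). Among the genes of these lists, Cox8b and Dct were the ones that passed an adjusted p of 0.05 in the edgeR fits with the batch or the block.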

How the data were processed

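Retina samples, 3 wt/wt and 3 ko/ko, were profiled, and cells were grouped by the deposited cell type and sample columns. The authors aligned reads to GRCm38 with Cell Ranger 3.1.0 (version and build per the labels), used exonic reads, clustered the cells in Seurat after integration over the batch, and deposited raw UMI counts of 52636 genes, not normalized. The removal of doublets is not given in the sources used here, and no doublet caller was run on the 116 cells. Cells carry numbers and no barcode sequences, so barcodes shared by libraries could not be counted. Depth was 3463728 to 6563762 UMIs a retina, and mitochondrial genes took 0.147% to 0.291% of RPE UMIs in batch 2 and 1.18% and 1.19% in batch 1.

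RPE counts were summed per retina. CPM are UMIs of a gene per 1e6 UMIs of that sum. Genotype was tested with edgeR 4.0.16 (TMM, filterByExpr, glmQLFit and glmQLFTest, genotype as the only term), with limma 3.58.1 and DESeq2 1.42.0 as alternatives, in R 4.3.3, and cell shares with two-sided exact permutation tests (Python 3.11.15, numpy 2.4.6). Thinning used the hypergeometric expectation of each cell. Intervals and limits cover counting error only. The lowest chi-square per gene between retinas was 1.48 (wt/wt 1 and 2, where other pairs had 1.81 to 6.21), and no retina was counted as a repeat of another. Deviations from the group mean correlated at 0.298, 0.406 and 0.653 between retinas of the same replicate number over 145 genes, so the numbers were taken to pair the retinas. Replicate 3 is batch 1, and within batch 2 the retinas of unlike number correlated at 0.200 and 0.309, so that the numbers there stand apart from the batch little or not at all. Members of the lists, the set-apart rule and the named genes were chosen with earlier results of these data known. Named genes are those of 21 lists, the 20 highest, the 30 with the largest lowest-of-6 ratio, 5 genes the study lists for RPE cells, the 3 smallest p in each direction and Dram2. Gm45233, Cops9, Etfb, Bloc1s1, Srprb, Abhd2, Slc6a13 and Gm22133 fall outside this rule and were chosen after their values were seen. Promoters are RefSeq, GRCm38.p6. Some genes of the lists are not reported here.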

Additional observations from a re-analysis of the deposited data

How the results depend on the processing

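Of 228 recomputed values over 16 results, 0 changed direction. Many of them could not, since counts of genes and detection shares have no direction. The count of genes called between the genotypes, 0 in edgeR, was 1 in DESeq2 (Malat1), 3 without the filter on low counts (Cox8b, Malat1 and Pmel), 3 with the batch in edgeR, 5 with the batch in limma-voom and 4 with the replicate block. It ranged from 0 to 2 when each retina was left out in turn, the 2 being Cox8b and Malat1 without wt/wt replicate 3. With the batch in edgeR and without the 5 cells of over 10% Malat1, an alternative chosen after seeing the data, it was 1. It stayed at 0 with limma-voom, RLE factors, a fold change above 2, the stricter cells, the cells of low rod share and without rod genes. Genes set apart numbered 94 at 2 times and 23 at 10 times, and 47 to 50 with each retina left out, where the ratio is met in fewer retinas. The Rpe65 detection of 67.6% was 50.2% at 300 UMIs and 81.0% not thinned, and that of Rdh5, 92.3%, was 78.0% at 300 UMIs. Those of Ptgds and Ttr were 99.998% at 300 UMIs. With each retina left out, Rpe65 lay at 65.1% to 71.7%, Rdh5 at 91.6% to 93.7%, and Ptgds and Ttr at 100%. The share of RPE cells differed by -0.179 to -0.112 percentage points and the rod-list share by -0.588 to -0.299. The log2 difference of Malat1 was -1.13 without wt/wt replicate 3 (adjusted p 0.000916). That of Cox8b was then 2.31 (adjusted p 0.000719), and its adjusted p lay between 1.15e-06 and 0.986 over the alternatives. Sums of 10 to 25 cells a retina limit all of these, and 308 genes passed the filter on low counts.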
